A study of Mus musculus with 6 samples.

Results

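The genes described here are 10 genes of the NRF2 pathway, the transcriptional response of cells to oxidants and reactive chemicals, measured by RNA-Seq in 6 NT3 tumors. They were taken by symbol from the table of gene counts, and all 10 were found among its 23358 entries. They comprise the transcription factor itself (Nfe2l2) and its inhibitor (Keap1), the cystine transporter and the glutathione synthesis enzymes (Slc7a11, Gclc, Gclm), a glutathione transferase (Gsta4), the thioredoxin branch (Txnrd1, Srxn1), a quinone reductase (Nqo1) and heme oxygenase (Hmox1). All 10 had enough counts to enter both comparisons, between the Cre lines and between the tumor sites.

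NRF2, the protein of Nfe2l2, is made continuously and is bound by KEAP1, which hands it to the CUL3 and RBX1 ubiquitin ligase for destruction. Oxidants and electrophiles modify cysteines of KEAP1, NRF2 then accumulates and, paired with a small MAF protein, binds antioxidant response elements at its target genes. Because this control acts on the protein, the mRNA of Nfe2l2 does not report NRF2 activity by itself, and target genes such as Nqo1, Gclm, Srxn1 and Txnrd1 are commonly read in its place. In skin and its appendages the pathway is known for protection of keratinocytes against oxidants.

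All 6 tumors came from female mice that carried the NT3 allele, a form of NF-κB-inducing kinase (NIK) without its TRAF3-binding domain that is tagged with GFP and expressed from ROSA26 once Cre removes a STOP cassette. In Osx-Cre;NT3 mice the Cre is driven by Sp7 regulatory sequence as a GFP fusion under doxycycline control, was kept silent with doxycycline chow until weaning, and came from a mixed C57Bl/6J and CD1 parent. In FSP1-Cre;NT3 mice the Cre is driven by S100a4 sequence and came from an FVB/n parent, while NT3 mice were C57Bl/6J. Both drivers have also been seen active in some hematopoietic cells. The Osx-Cre;NT3 tumors 13, 18 and 25 were all trunk tumors, with a latency (the age at which a tumor was first felt) of 150, 168 and 115 days. In the other line, tumor 29 was a trunk tumor and 27 and 36 were perineal, and these 3 had latencies of 72, 101 and 52 days, in that order. Latency and strain differed wholly along with the line, and site in part, so that they cannot be told apart from it. No tissue without NT3 was analysed here, so the values describe tumors relative to each other.

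Total counts ranged from 51824408 to 163297772 per tumor, and all counts were even numbers. The submitters give an average RNA integrity number of 7.7 in the first line and of 8.5 in the second, and the ribosomal entry Rn45s took from 5.28% to 13.3% of the counts. The tumors were labelled as soft tissue tumors of the mesenchymal lineage, an origin that the paper infers from staining, location and the Cre patterns. The summed level of 5 basal keratinocyte markers ranged from 5502 to 14190 CPM (counts relative to the library total after TMM scaling). Krt5 alone ranged from 2591 to 6087 CPM. For the skin terms among its own results, the paper proposes skin left on the excised tumors as the likely source. The source of the keratinocyte markers was not tested here. Of the 4 osteoblast markers, Sp7, Bglap and Ibsp reached at most 0.282 CPM in any tumor. The other, Col1a1, which is also on the fibroblast list, ranged from 886 to 4002 CPM. Tumor 36 stood apart from the others, with 4660 CPM summed over 5 simple epithelium markers against 566 to 1174 in the other tumors, and 2069 CPM over 4 smooth muscle and myoepithelial markers against 226 to 507. Differences between sites that rest on tumor 36 are given with and without it, where the remaining perineal tumor 27 is assumed to vary like the trunk tumors. In bulk tumor RNA, fewer cells of a type and less RNA per cell cannot be told apart.

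The promoters of the genes are shown first, because antioxidant response elements are what places most of these genes in 1 pathway. RefSeq windows on GRCm38.p6, from 250 bases before to 50 bases after a transcript start, were found for 7 of the 10 genes, without Gclc, Gsta4 and Hmox1, and amounted to 9 windows. They were searched on both strands for the core of the antioxidant response element, TGACNNNGC, and for the AP-1 motif, TGANTCA, which reads the same on both strands. A stretch such as the AP-1 letters TGACTCA followed by GC would count for both. The antioxidant response element core was found in 4 of the 9 windows, 1 each of Nfe2l2, Gclm, Txnrd1 and Srxn1, and in 12.4% of all 32851 windows. The AP-1 motif was found in the Srxn1 window only, at 2 places, and in 7.81% of all windows. In the sequences below, written 5′ to 3′ on the strand of the gene, capitals mark the matches and only bases before the start are printed.
Nfe2l2, chr2:75704870-75704913, minus strand, bases -250 to -207: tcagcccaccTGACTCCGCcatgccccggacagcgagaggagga
Gclm, chr3:122245398-122245456, plus strand, bases -159 to -101: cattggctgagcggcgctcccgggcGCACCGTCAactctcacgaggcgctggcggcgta
Txnrd1, chr10:82859089-82859147, plus strand, bases -117 to -59: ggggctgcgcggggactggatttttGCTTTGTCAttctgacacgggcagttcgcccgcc
Srxn1, chr2:152105397-152105510, plus strand, bases -127 to -14: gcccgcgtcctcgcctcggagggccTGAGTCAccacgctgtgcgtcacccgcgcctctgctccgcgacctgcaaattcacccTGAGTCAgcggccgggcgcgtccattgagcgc
The matches of Gclm and Txnrd1 lie on the opposite strand, where they read TGACGGTGC and TGACAAAGC. The capitals in Srxn1 are the 2 AP-1 matches, and its only match of the letters TGACNNNGC lies after the start, at bases 29 to 37 on the opposite strand. The AP-1 match at bases -45 to -39 is followed by GC and reads TGAGTCAGC, with G where the searched core has C. It was therefore not counted as that core, and other forms of the element were not searched. A match of these letters is a description of the window and not a binding site, and the windows of Keap1, Nqo1 and Slc7a11 held neither motif. Bases outside the windows were not searched, so an element further from the start of any of these genes would be missed.

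Levels of different genes were compared as RPKM, which divides the counts by gene length. Slc7a11 had the highest mean level of the 10 genes, 59.4 ± 37.2 RPKM (SD, n = 6), and Nqo1 the lowest, 4.08 ± 3.25. Between them, mean RPKM descended from Nfe2l2 (39.2 ± 4.84) through Gclm (34.2 ± 8.25), Txnrd1 (32.3 ± 5.997), Srxn1 (29.7 ± 4.52), Hmox1 (23.6 ± 3.03), Gsta4 (14.5 ± 11.5) and Keap1 (11.7 ± 1.69) to Gclc (5.39 ± 2.36). Neighbours in this order were mostly not separated. Keap1 exceeded Gclc in 6 of 6 tumors, and Srxn1 exceeded Hmox1, Hmox1 exceeded Gsta4 and Gclc exceeded Nqo1 in 5 of 6, whereas Gclm exceeded Txnrd1 in 2 of 6 tumors and Gsta4 exceeded Keap1 in 3 of 6. The most abundant products of the wider pathway were not among the 10 genes. Of 102 genes in 9 lists, the ferritin chains Ftl1 (1096 ± 374.5 RPKM) and Fth1 (1043 ± 226) had the highest means, followed by the peroxiredoxin Prdx1 (424 ± 163), while the conjugate exporter Abcc2 had the lowest, 0.0256 ± 0.0475.

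**Figure D1:**
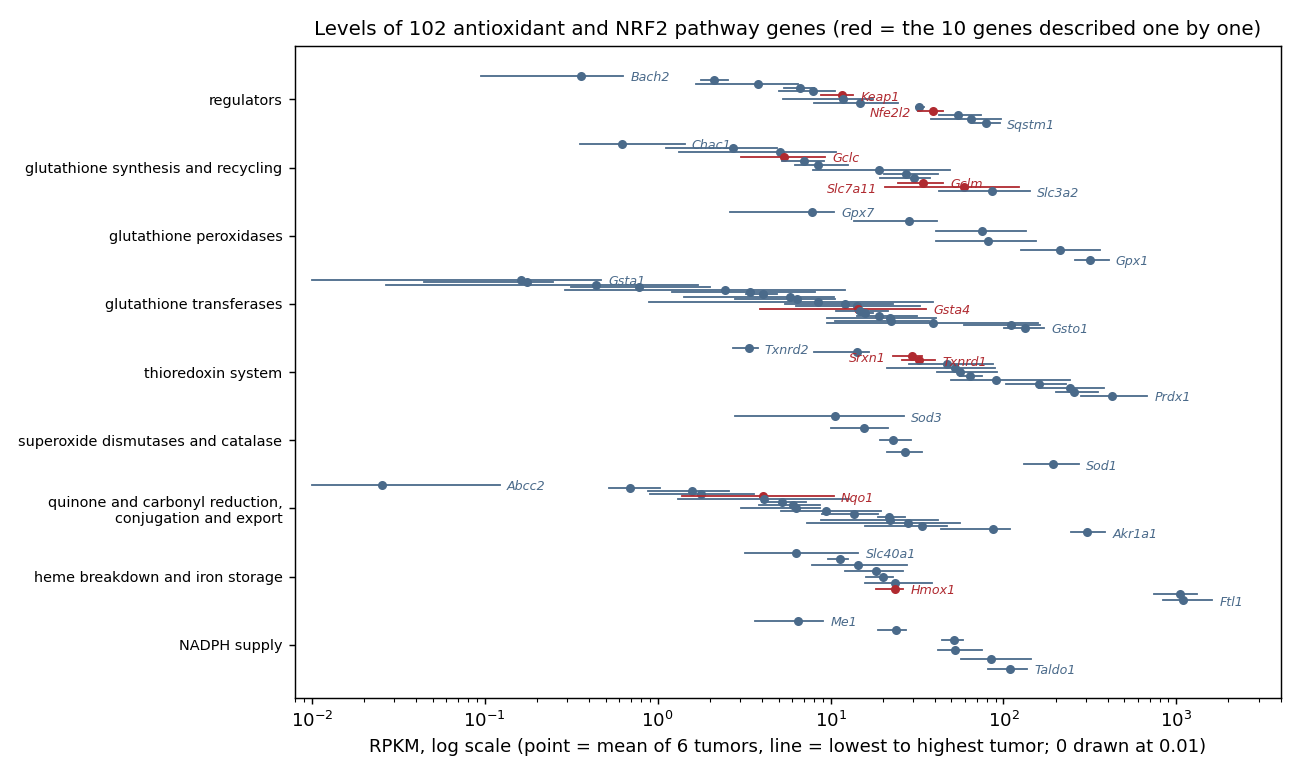
RPKM on a log axis of 102 genes in 9 lists, with the mean of 6 tumors as a point and the lowest to highest tumor as a line, and the 10 genes described singly in red. Ftl1 and Fth1 lie highest, and the red genes run from Nqo1 at 4.08 to Slc7a11 at 59.4 RPKM.

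For comparisons of the same gene between tumors, counts were scaled to CPM with TMM factors and tested with edgeR's quasi-likelihood test over all genes. In the comparison of FSP1-Cre;NT3 with Osx-Cre;NT3 tumors, none of the 10 genes passed an adjusted p of 0.05 by edgeR, and neither did any of the 16415 genes tested (0%), although 1770 had an unadjusted p under 0.05. With DESeq2, again none of the 10 genes passed, where 420 of 15461 genes with an adjusted p did (2.72%). Of the 10 genes, 4 had a positive and 6 a negative log2 fold change (FSP1-Cre;NT3 over Osx-Cre;NT3), and their median was -0.16 against 0.02 over all genes. Gclm alone had an unadjusted p under 0.05, on the lower side, where 3.47% of all genes were found. Gclm was also the only one of the 10 genes whose lines did not overlap, lower in every FSP1-Cre;NT3 tumor, as were 7.97% of all genes.

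In the comparison of the 2 perineal with the 4 trunk tumors, again none of the 10 genes and none of 16971 genes (0%) passed by edgeR, with 1784 genes at an unadjusted p under 0.05. None of the 10 passed with DESeq2, against 605 of 16551 genes (3.66%). Of the 10 log2 fold changes (perineal over trunk) 5 were positive and 5 negative, and their median was -0.004 against -0.02 over all genes. Nqo1 alone had an unadjusted p under 0.05, on the higher side with 8.88% of all genes, and no member's sites were free of overlap, compared with 10.3% of all genes wholly higher and 9.36% wholly lower in perineal tumors. The comparisons share tumors, since both perineal tumors were FSP1-Cre;NT3, and without tumor 29 they are the same comparison.

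**Figure D2:**
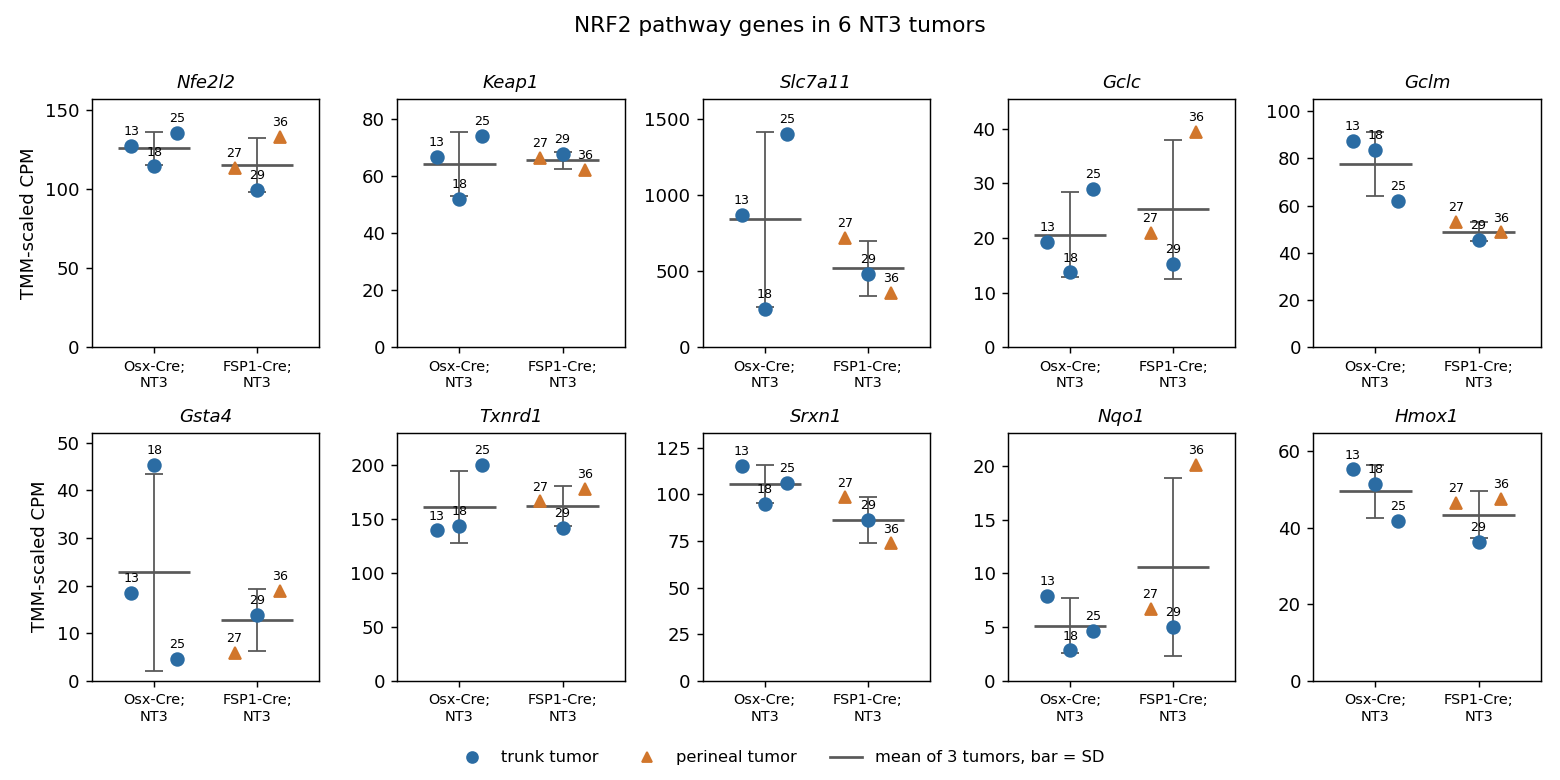
TMM-scaled CPM of the 10 genes in each tumor, by line, with tumor numbers beside the points, circles for trunk and triangles for perineal tumors, and the mean ± SD of 3 tumors in grey. Gclm is the gene whose lines do not overlap, and tumor 36 is far above the rest for Nqo1.

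**Figure D3:**
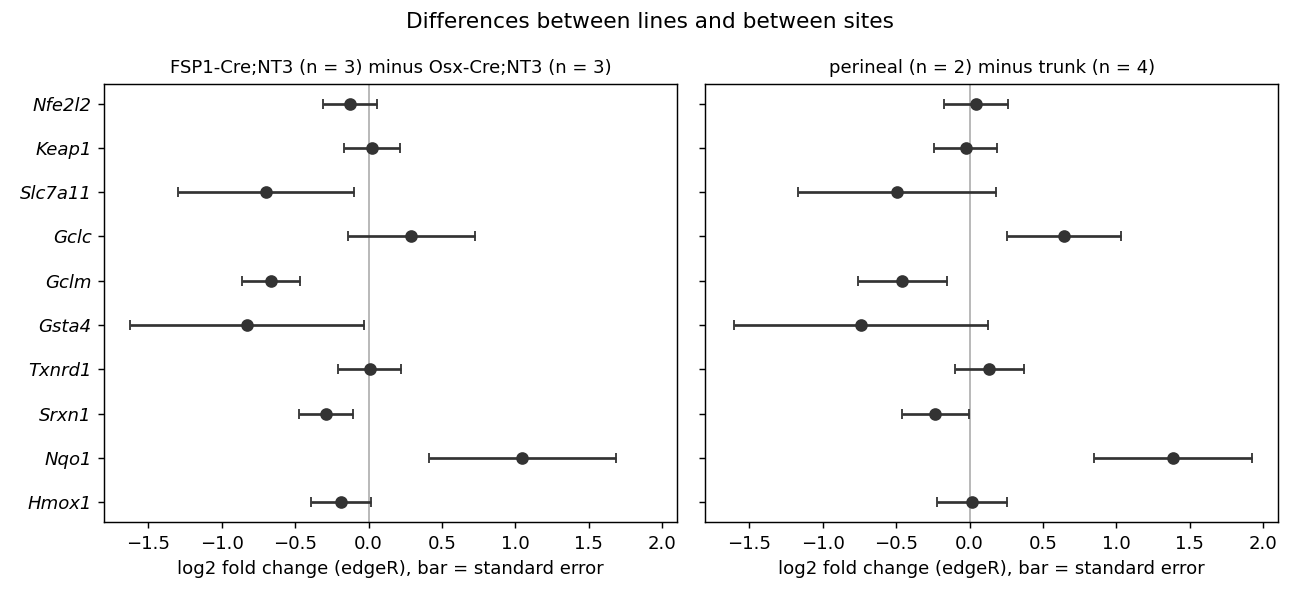
Log2 fold changes with their standard errors for the comparison of lines (left) and of sites (right). The values furthest from 0 relative to their error are Gclm between lines, at -0.66 ± 0.20, and Nqo1 between sites, at 1.39 ± 0.54.

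The transcription factor and its inhibitor varied little between tumors. Nfe2l2 (chr2:75675519-75704641, mm10) encodes NRF2, and had 128, 114.5 and 136 CPM in the Osx-Cre;NT3 tumors 13, 18 and 25, and 113, 99.5 and 133 CPM in the FSP1-Cre;NT3 tumors 27, 29 and 36. The lines overlapped, with tumor 29 the lowest and tumor 25 the highest, and the log2 fold change between lines was -0.13 ± 0.18 (SE, adjusted p = 0.787 by edgeR). Keap1 (chr9:21229730-21239332) encodes the substrate adaptor that captures NRF2, and had 66.7, 51.9 and 74.0 CPM in the Osx-Cre;NT3 tumors and 66.4, 67.7 and 62.0 CPM in the FSP1-Cre;NT3 tumors. Its lowest and its highest tumor were both Osx-Cre;NT3, and the log2 fold change between lines was 0.03 ± 0.19 (adjusted p = 0.960 by edgeR). Between sites the log2 fold changes were 0.04 ± 0.22 for Nfe2l2 and -0.03 ± 0.22 for Keap1.

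The ratio of Nfe2l2 to Keap1 within a tumor, computed from RPKM, does not depend on scaling between tumors. It was 3.47, 3.99 and 3.31 in the Osx-Cre;NT3 tumors and 3.09, 2.66 and 3.89 in the FSP1-Cre;NT3 tumors, so that Nfe2l2 exceeded Keap1 in each tumor, and the lines overlapped through tumor 36. The log2 ratio averaged 1.84 ± 0.14 in the former and 1.67 ± 0.28 in the latter (SD, n = 3 each), with a difference of -0.17 (two-sided exact permutation p = 0.4, where 0.1 is the smallest that 3 against 3 tumors allow).

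Among all 13 regulators, none passed in either comparison by edgeR. The autophagy adaptor Sqstm1, which binds KEAP1, had the highest mean level, 78.9 ± 10.2 RPKM, and the repressor Bach2 the lowest, 0.359 ± 0.187 RPKM. Nfe2l3, an NRF2 relative, had 13.8, 21.8 and 14.9 CPM in the Osx-Cre;NT3 and 4.82, 11.03 and 7.57 CPM in the FSP1-Cre;NT3 tumors, which did not overlap. Its log2 fold change was -1.11 ± 0.37 between lines (adjusted p = 0.458 by edgeR) and -1.32 ± 0.38 between sites (adjusted p = 0.307 by edgeR), the latter passing with DESeq2 (adjusted p = 0.0351, and 0.356 without tumor 36). Rbx1, the RING subunit of the ligase that ubiquitinates NRF2, had a log2 fold change of -0.59 ± 0.24 between lines (adjusted p = 0.458 by edgeR), and its lines overlapped, with 154, 162 and 95.9 CPM in Osx-Cre;NT3 and 86.9, 100.4 and 86.9 CPM in FSP1-Cre;NT3 tumors. Sqstm1 and Cul3, the scaffold of that ligase, also had lines that did not overlap, with smaller log2 fold changes of -0.33 ± 0.18 and -0.16 ± 0.15. Over all genes, 7.97% were lower in every FSP1-Cre;NT3 tumor than in any Osx-Cre;NT3 tumor. The share lower at an unadjusted p under 0.05 by edgeR was 3.47%.

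Slc7a11 (chr3:50364936-50443613) encodes the transporter subunit that brings in cystine, the source of the cysteine in glutathione. It had 871, 251 and 1399 CPM in tumors 13, 18 and 25, and 715, 483 and 356 CPM in tumors 27, 29 and 36. The Osx-Cre;NT3 tumors held both the lowest and the highest value, 5.58-fold apart, and enclosed the whole range of the other line. The log2 fold change between lines was -0.70 ± 0.60 (adjusted p = 0.629 by edgeR), and it was -0.15 ± 0.56 without tumor 25 and -1.14 ± 0.39 without tumor 18, the latter with an unadjusted p under 0.05. Slc3a2, which encodes the partner chain that anchors this and other amino acid transporters, had the highest mean of the glutathione synthesis and recycling list, 85.3 ± 37.5 RPKM.

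Gclm (chr3:122245592-122266648) encodes the modifier subunit of glutamate-cysteine ligase, the first and rate-limiting enzyme of glutathione synthesis. It had 87.5, 83.4 and 62.0 CPM in the Osx-Cre;NT3 tumors and 53.1, 45.4 and 48.6 CPM in the FSP1-Cre;NT3 tumors. Every FSP1-Cre;NT3 tumor was below every Osx-Cre;NT3 tumor, with means of 49.0 ± 3.88 and 77.6 ± 13.7 CPM (SD, n = 3 each). The log2 fold change was -0.66 ± 0.20 (adjusted p = 0.458 by edgeR, and adjusted p = 0.0888 by DESeq2), so the difference did not pass the adjustment over all genes. Among trunk tumors alone, where site does not differ, it was -0.78 ± 0.39, and without tumor 36 it was -0.66 ± 0.24. Tumor 29 is the only FSP1-Cre;NT3 tumor in that trunk comparison, so no p is read from it. With site as a covariate the log2 fold change was -0.77 ± 0.33. Among the alternatives other than trunk tumors alone, the unadjusted edgeR p was no longer under 0.05 with that covariate, without tumor 13 or without tumor 29. Summed fibroblast markers moved with the line in the opposite direction, with sums over 6 genes from 5194 to 6742 CPM in Osx-Cre;NT3 and from 11540 to 15000 CPM in FSP1-Cre;NT3 tumors, as did 4 endothelial markers, from 87.1 to 210.2 and from 223 to 334 CPM, with none of these genes at 0. The average RNA integrity number differed too (7.7 and 8.5), and the part of these in the Gclm difference was not tested.

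Gclc (chr9:77754535-77794489) encodes the catalytic subunit of the same enzyme and did not follow Gclm. It had 19.2, 13.7 and 29.0 CPM in tumors 13, 18 and 25, and 21.0, 15.2 and 39.5 CPM in tumors 27, 29 and 36. Tumor 36 was highest, tumor 18 lowest and the lines overlapped, with a log2 fold change of 0.29 ± 0.43 (adjusted p = 0.792 by edgeR) that was -0.19 without tumor 36 and -0.44 among trunk tumors alone. Between sites the log2 fold change was 0.64 ± 0.39 (adjusted p = 0.568 by edgeR), and without tumor 36 it was 0.12 ± 0.47. On the RPKM scale, the ratio of Gclc to Gclm was 0.0942, 0.0704 and 0.201 in the Osx-Cre;NT3 and 0.170, 0.144 and 0.348 in the FSP1-Cre;NT3 tumors, so the modifier mRNA exceeded the catalytic one in all 6 tumors. The log2 ratio averaged -3.19 ± 0.78 in the former and -2.29 ± 0.68 in the latter (SD, n = 3 each), a difference of 0.89 (two-sided exact permutation p = 0.3, and 0.4 after adjustment over the 2 ratios). That difference was 0.51 without tumor 36 and 1.32 without tumor 25.

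Of the 12 genes of glutathione synthesis and recycling, 3 had an unadjusted p under 0.05 between lines, all lower in FSP1-Cre;NT3 tumors (Gclm, Ggt1 and Chac2), and each had lines that did not overlap. Over all genes, 3.47% were lower at that p and 7.97% lower without overlap. Ggt1, which encodes the surface enzyme that starts the breakdown of glutathione outside the cell, had 14.5, 21.2 and 26.7 CPM in the Osx-Cre;NT3 tumors and 6.23, 5.82 and 3.31 CPM in the FSP1-Cre;NT3 tumors. Its log2 fold change between lines was -2.02 ± 0.37, and it passed with DESeq2 (adjusted p = 5.72e-05) but not with edgeR (adjusted p = 0.412). Between sites, where the tumors overlapped, the log2 fold change of Ggt1 was -1.84 ± 0.64 (adjusted p = 0.383 by edgeR). Without tumor 36 it was -1.45 ± 0.82. Chac2, which encodes an enzyme that degrades glutathione inside the cell, had a log2 fold change of -0.72 ± 0.25 (adjusted p = 0.458 by edgeR). The list's median log2 fold change was -0.30 between lines, against 0.02 over all genes, and -0.01 between sites. Chac1, a paralog of Chac2, had the lowest mean of the list, 0.622 ± 0.406 RPKM. Between sites, Glrx, which encodes the glutathione-dependent reductase glutaredoxin, had 80.8 CPM in tumor 36 and from 13.0 to 34.7 CPM in the others. Its log2 fold change was 1.28 ± 0.54 with all tumors and 0.15 ± 0.55 without tumor 36.

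Gsta4 (chr9:78191966-78209349) encodes a glutathione transferase known for conjugating the lipid peroxidation product 4-hydroxynonenal, which is background and no measure of these data. It had 18.5, 45.3 and 4.59 CPM in tumors 13, 18 and 25, and 5.89, 13.8 and 18.9 CPM in tumors 27, 29 and 36. The highest and the lowest tumor, 9.87-fold apart, were both Osx-Cre;NT3 trunk tumors. The log2 fold change between lines was -0.83 ± 0.80 (adjusted p = 0.666 by edgeR), and it was 0.15 without tumor 18.

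The 21 transferase genes ranged from Gsto1, an omega class enzyme with 132.5 ± 26.2 RPKM, to Gsta1 with 0.163 ± 0.189 RPKM. Close paralogs of this family (Gsta1 and Gsta2, Gstp1 and Gstp2, the Gstm cluster) can exchange reads, so their separate values are uncertain. Between lines, Gstm2 (0.89 ± 0.34) and Gstt2 (1.59 ± 0.45) had positive log2 fold changes with unadjusted p under 0.05 and lines that did not overlap, as 9.03% of all genes did in that direction. The share of all genes with such a p on the higher side was 7.31%. Gstt2 passed with DESeq2 (adjusted p = 0.0321) and not with edgeR (adjusted p = 0.458). Between sites, Mgst2, Mgst3, Gstp2 and Gstt2 were higher in perineal tumors at an unadjusted p under 0.05, as were 8.88% of all genes. For Mgst2, Mgst3 and Gstp2 this rested on tumor 36. Their log2 fold changes were 3.03 ± 1.03, 2.34 ± 0.85 and 3.53 ± 1.03 with all tumors. Without tumor 36 they were -0.56 ± 0.88, -0.68 ± 0.56 and -0.14 ± 0.89. Mgst3, a microsomal transferase, had 125 CPM in tumor 36, 8.17 CPM in the other perineal tumor and from 7.41 to 17.5 CPM in trunk tumors. Mgst2 had 28.6 CPM in tumor 36 and from 0.648 to 2.61 CPM elsewhere. Gstp2 had 11.35 CPM in tumor 36 and from 0.290 to 0.857 CPM elsewhere, and it passed with DESeq2 (adjusted p = 0.0232) with all tumors but not without tumor 36. Gstt2 had 16.2 and 17.2 CPM in the perineal tumors and from 2.39 to 10.9 CPM in trunk tumors, and its log2 fold change between sites was 1.38 ± 0.53, or 1.33 ± 0.68 without tumor 36.

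Txnrd1 (chr10:82833951-82897724) encodes cytosolic thioredoxin reductase, a selenoprotein that returns thioredoxin to its reduced form. It had 139, 144 and 199.7 CPM in the Osx-Cre;NT3 tumors and 166, 142 and 178 CPM in the FSP1-Cre;NT3 tumors. The line means were 161 ± 33.7 and 162 ± 18.5 CPM, with a log2 fold change of 0.01 ± 0.21 (adjusted p = 0.989 by edgeR) whose sign turned under several alternatives. Srxn1 (chr2:152105730-152111353) encodes sulfiredoxin, which repairs over-oxidized peroxiredoxins. It had 115, 94.9 and 106 CPM in the Osx-Cre;NT3 tumors and 98.4, 86.2 and 73.8 CPM in the FSP1-Cre;NT3 tumors. The lines overlapped by a single pair, tumor 27 above tumor 18, and the log2 fold change was -0.29 ± 0.18 (adjusted p = 0.516 by edgeR).

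In the thioredoxin list of 13 genes, none had an unadjusted p under 0.05 between lines, where 3 were higher, 10 were lower and the median log2 fold change was -0.26. Prdx1 was the most abundant, and Txnrd2, the mitochondrial reductase, the least, 3.36 ± 0.377 RPKM. Between sites, Prdx6, which encodes the 1-Cys peroxiredoxin, had 702 CPM in tumor 36, 169 CPM in the other perineal tumor and from 146 to 209 CPM in trunk tumors, with a log2 fold change of 1.27 ± 0.50 (adjusted p = 0.436 by edgeR) that was -0.08 ± 0.35 without tumor 36.

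Nqo1 (chr8:107388225-107403205) encodes the quinone reductase that is the usual readout of NRF2, and it was the least abundant of the 10 genes on the RPKM scale. It had 7.91, 2.82 and 4.65 CPM in the Osx-Cre;NT3 tumors, 4.98 CPM in the FSP1-Cre;NT3 trunk tumor 29, and 6.69 and 20.1 CPM in the perineal tumors 27 and 36. Tumor 36 was highest, while tumor 27 lay below trunk tumor 13. The log2 fold change between sites was 1.39 ± 0.54 (adjusted p = 0.434 by edgeR, and adjusted p = 0.216 by DESeq2). Without tumor 36 it was 0.40 ± 0.58, and the unadjusted edgeR p was no longer under 0.05 there, nor without tumor 18, 25 or 29, with line as a covariate, or within FSP1-Cre;NT3 tumors. Between lines it was 1.05 ± 0.64 (adjusted p = 0.509 by edgeR), 0.19 without tumor 36, and -0.04 among trunk tumors alone. In tumor 36 the summed simple epithelium and smooth muscle and myoepithelial markers described above were also highest, although Krt18 was higher in tumor 18 (444 against 245 CPM). The suprabasal keratinocyte (682 CPM), neutrophil (459 CPM) and adipocyte (124 CPM) sums were highest there too, against at most 343, 155.5 and 34.3 CPM elsewhere. The 5 basal keratinocyte markers summed to 5502 CPM against 9891 to 14190 in the other tumors. The sums of the other marker lists were not highest in tumor 36. The part of these markers in its Nqo1 level was not tested.

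The other 16 genes of quinone and carbonyl reduction, conjugation and export included Akr1a1, an aldehyde reductase that was the most abundant at 304 ± 56.4 RPKM. Between sites, the aldo-keto reductase gene Akr1b8 and the exporter gene Abcc4 had unadjusted p under 0.05, each higher in both perineal tumors than in any trunk tumor. Of all genes, 8.88% were higher at that p and 10.3% were higher without overlap. Akr1b8 had 17.2 and 31.6 CPM in perineal and from 8.28 to 14.8 CPM in trunk tumors, with a log2 fold change of 1.18 ± 0.35 (adjusted p = 0.310 by edgeR), or 0.68 ± 0.40 without tumor 36. Abcc4 had 14.7 and 26.4 CPM in perineal and from 6.56 to 11.7 CPM in trunk tumors, with a log2 fold change of 1.14 ± 0.36 (adjusted p = 0.339 by edgeR), or 0.67 ± 0.42 without tumor 36. Abcc4 was also higher in every FSP1-Cre;NT3 than in every Osx-Cre;NT3 tumor, as were 9.03% of all genes. Its log2 fold change between lines was 1.06 ± 0.38 (adjusted p = 0.458 by edgeR).

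Hmox1 (chr8:75093618-75100593) encodes the inducible heme oxygenase, which BACH1 represses when heme is low and which macrophages also express. It had 55.2, 51.4 and 41.85 CPM in the Osx-Cre;NT3 tumors and 46.4, 36.4 and 47.5 CPM in the FSP1-Cre;NT3 tumors. The lines overlapped, with tumor 13 highest and tumor 29 lowest, and the log2 fold change was -0.19 ± 0.20 (adjusted p = 0.708 by edgeR). The summed CPM of 8 macrophage markers overlapped as well, from 883 to 1606 in Osx-Cre;NT3 and from 790.3 to 1426 in FSP1-Cre;NT3 tumors. None of the 9 genes of heme breakdown and iron storage had an unadjusted p under 0.05 in either comparison, and the iron exporter Slc40a1 was the least abundant, 6.32 ± 4.30 RPKM.

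The remaining lists held few differences. Of 5 superoxide dismutase and catalase genes, Sod3, which encodes the secreted dismutase of the extracellular matrix, had 43.6 and 67.2 CPM in the perineal and from 7.66 to 16.9 CPM in the trunk tumors. The sites did not overlap for Sod3, as they did not for 10.3% of all genes in that direction. Its log2 fold change between sites was 2.18 ± 0.35, and it passed with DESeq2 (adjusted p = 6.17e-05) and not with edgeR (adjusted p = 0.263). Without tumor 36 it was 1.84 ± 0.42 and did not pass with DESeq2 (adjusted p = 0.356). Between lines it was 1.82 ± 0.60 (adjusted p = 0.458 by edgeR), and the FSP1-Cre;NT3 trunk tumor 29, at 13.5 CPM, lay within the Osx-Cre;NT3 range. The 4 adipocyte markers, summed, also separated the sites, with 34.3 and 124 CPM in perineal and from 2.32 to 12.5 CPM in trunk tumors. The summed neutrophil markers were higher in both perineal tumors too (155.5 and 459 against 19.5 to 61.8 CPM). So were the summed endothelial markers (263 and 334 against 87.1 to 223 CPM). The summed basal keratinocyte markers were 5502 CPM in tumor 36, while tumor 27, at 9891 CPM, lay just below the trunk range of 9917 to 14190. For Krt5, Krt15, Trp63 and Col17a1, tumor 27 lay within the trunk range. The part of these markers in the Sod3 difference was not tested. Sod1, the cytosolic dismutase, was the most abundant of the list at 193 ± 57.2 RPKM, and Sod3 the least at 10.7 ± 9.70. No glutathione peroxidase (from Gpx7 at 7.77 ± 2.93 to Gpx1 at 318 ± 61.5 RPKM) and none of the 6 genes of NADPH supply (from Me1 at 6.50 ± 1.74 to Taldo1 at 109 ± 23.4 RPKM) had an unadjusted p under 0.05 in either comparison. Over all 102 pathway genes, 100 were tested between lines, of which 4 were higher and 5 lower at that p, against 7.31% and 3.47% of all genes. Between sites 101 were tested, of which 10 were higher and 2 lower, against 8.88% and 1.63% of all genes. Without tumor 36, 1 of 100 was higher and 7 were lower between lines (4.24% and 2.01% of all genes), and 1 of 101 was higher and 1 lower between sites (1.59% and 0.427%). With DESeq2, 1 was higher (Gstt2) and 1 lower (Ggt1) in FSP1-Cre;NT3 tumors, and 2 were higher (Sod3 and Gstp2) and 1 lower (Nfe2l3) in perineal tumors, where 2.72% and 3.66% of all genes were called. Without tumor 36, DESeq2 called 0 of the 101 pathway genes and 14 of 17328 genes between sites, while edgeR gave 2 pathway genes an unadjusted p under 0.05.

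The 10 genes differed widely in their spread between tumors. Over the 6 tumors, the SD of log2 CPM was 0.171 for Nfe2l2, 0.173 for Keap1, 0.212 for Txnrd1, 0.215 for Hmox1 and 0.228 for Srxn1, against a median of 0.473 over all genes tested. Nfe2l2 was more variable than 6.86% of all genes, and than 12.6% of the 2924 genes within 1 log2 unit of its mean level. By the same measure at their own levels, Keap1 was more variable than 13%, Hmox1 than 21.3%, Txnrd1 than 21.4% and Srxn1 than 26.2%. At the other end, the SD was 0.903 for Slc7a11, 0.952 for Nqo1 and 1.21 for Gsta4. Among genes within 1 log2 unit of its own level, Slc7a11 was more variable than 95.2%, Gsta4 than 95.8% and Nqo1 than 82.8%. Gclm (0.401) and Gclc (0.574) lay between them. Without tumor 36 the SD of Nqo1 was 0.568 and that of Gclc 0.423, while Slc7a11 (0.934) and Gsta4 (1.32) remained highest.

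**Figure D4:**
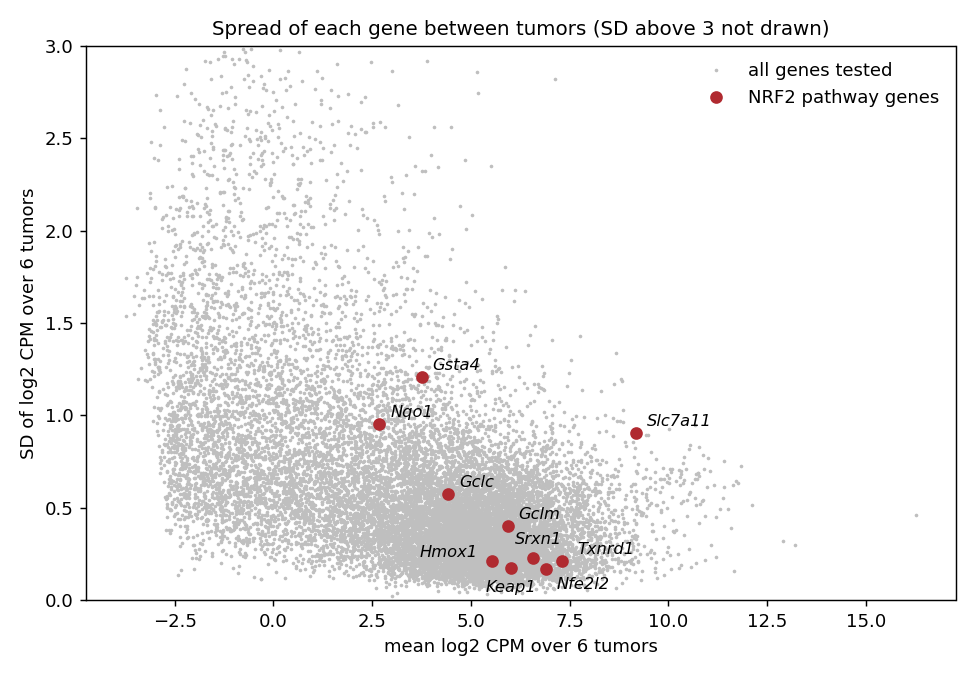
SD against mean of log2 CPM over 6 tumors for all 16415 genes tested between lines (grey) and the 10 genes (red), without genes of SD above 3. Nfe2l2, Keap1, Hmox1, Txnrd1 and Srxn1 lie below most genes of their level, at SD 0.171 to 0.228, and Slc7a11 and Gsta4 stand above most genes of theirs.

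The genes with the widest spread did not point to the same tumor. Expressed as log2 CPM minus the mean of the other 5 tumors, tumor 25 was 1.53 above for Slc7a11 with -1.85 for Gsta4, tumor 18 was 2.101 above for Gsta4 with -1.45 for Slc7a11 and -1.41 for Nqo1, and tumor 36 was 1.97 above for Nqo1 and 1.06 above for Gclc with -0.84 for Slc7a11. Tumor 29 was below the others for 8 of the 10 genes, with a median of -0.32 against -0.01 over all genes, and tumor 13 was above for 8 of 10, with a median of 0.33 against -0.02. These medians describe the 10 genes and were not tested.

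**Figure D5:**
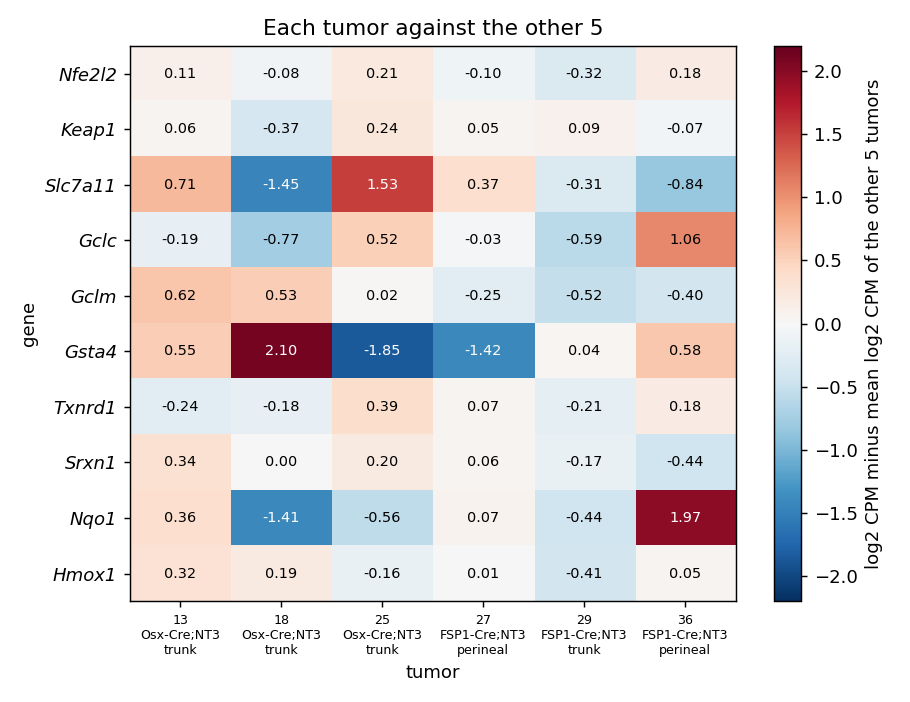
Log2 CPM of each gene in each tumor minus the mean of the other 5 tumors, red above and blue below. The deepest colours are in Slc7a11, Gsta4 and Nqo1, and fall in tumors 18, 25, 27 and 36.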

How the data were processed

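RNA-Seq of 6 tumors was analysed from the deposited gene table. The authors deposited raw read counts per gene and RPKM values for each tumor on mm10. The submitters' processing notes name bcl2fastq, TopHat2 2.0.6 and HTSeq, while the methods name Histat2 and featureCounts. The annotation and strandedness are not given in the sources used here, so antisense overlap is not resolved. Groups follow the labels, 1 tumor per mouse. RPKM served to compare genes, and counts to compare tumors.

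Tests on the counts used edgeR 4.0.16 under R 4.3.3 (filterByExpr, TMM, glmQLFit, glmQLFTest, Benjamini-Hochberg over all genes tested, threshold 0.05), after a check on simulated counts. With 200 genes changed 2-fold between lines in that check, edgeR called 0 of them, and DESeq2 called 9 and 71 unchanged genes. At 4-fold, edgeR called 102 and 12 unchanged genes, and DESeq2 called 158 and 72 unchanged genes. A gene that did not pass by edgeR can therefore still differ, and a DESeq2 call can be a false one. Standard errors are the log2 fold change over the square root of F. Log2 CPM used a prior count of 2. DESeq2 1.42.0, other scalings and filters, covariates, halved counts and leaving out each tumor were alternatives. DESeq2 without tumor 36 and the values of other pathway genes without it were added after the data were seen. The 10 genes, the 9 pathway lists and the marker lists were chosen with earlier results of these data known. The text gives the 10 genes in every tumor, other pathway genes with an unadjusted p under 0.05 in a comparison, and the highest and lowest gene of each list by RPKM. Fth1, Prdx1, Slc3a2, Cul3 and single marker genes were chosen after their values were seen. The number of tumors, not the depth, limits the precision. Of 59 marker entries, 56 were found, some under older symbols.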

Additional observations from a re-analysis of the deposited data

Results flagged for a closer look

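Of 24 groups of values examined (the log2 CPM of the 10 genes and the log2 of both ratios, over all 6 tumors and over the 4 trunk tumors), 1 held a tumor far from the rest, where chance gives about 1 in 20 such groups, or 1.2 here. It was Txnrd1 in the trunk tumors, where tumor 25 had a log2 CPM of 7.64 and the next, tumor 18, 7.17, a gap of 0.913 of the whole range.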

How the results depend on the processing

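No paired analysis was possible because the labels number each tumor by its own mouse and the lines share no number. By edgeR, 0 genes passed between lines under every alternative run, and 0 between sites except without single tumors, where the count ranged from 0 to 567 (2 without tumor 25, 567 without tumor 27). At an unadjusted p under 0.05, 1770 genes between lines became 836, 4245 and 1040 without tumors 13, 25 and 36, and 1784 between sites became 1091, 2783 and 350 without tumors 13, 27 and 36. DESeq2 called 420 genes between lines and 605 between sites, and 14 between sites without tumor 36, a fit chosen after seeing the data. The cause was not tested. None of the 10 genes passed under any alternative, and the lowest adjusted p was 0.0715 (Gclm between lines by edgeR, without tumor 25). No gene in the whole table had a smaller adjusted p in that fit. Without TMM the median log2 fold change of all genes between lines moved from 0.02 to 0.13. Of 140 alternative log2 fold changes between lines 123 kept their sign, and of 150 between sites 135. Signs turned between lines for Gclc (-0.44 with site as a covariate and among trunk tumors, and from -0.19 to 0.57 without single tumors), Nqo1 (-0.040 and -0.042), Txnrd1 (-0.18 and -0.19, -0.0023 with DESeq2, -0.0031 without a filter, and from -0.090 to 0.14 without single tumors), Keap1 (from -0.11 to 0.096 without single tumors) and Gsta4 (from -1.38 to 0.15, the latter without tumor 18). Between sites they turned for Gclm (0.16 with line as a covariate, 0.15 within FSP1-Cre;NT3 tumors), Slc7a11 (0.14 in both), Keap1 (0.069 without TMM, 0.0029 with at least 10 counts in every tumor) and, without single tumors, Keap1 (from -0.12 to 0.028), Nfe2l2 (from -0.075 to 0.13), Gsta4 (from -1.8 to 0.0058) and Hmox1 (from -0.11 to 0.11). With DESeq2 without tumor 36, the signs of Nfe2l2 (-0.11) and Hmox1 (-0.027) turned. The log2 ratio differences kept their sign throughout, from -0.32 to -0.05 for Nfe2l2 to Keap1 and from 0.51 to 1.32 for Gclc to Gclm without single tumors.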

Other observations

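Over the 100 pathway genes tested between lines, tumor 36 had the highest value for 33 genes, tumor 18 for 30 and tumor 13 for 20, where these tumors were highest for 24.8%, 22.8% and 11.9% of all genes. Tumor 25 had the lowest value for 35 pathway genes and tumor 29 for 23, against 18.7% and 9.44% of all genes. Tumor 27 was highest for 2 pathway genes and lowest for 13, against 7.64% and 10.9% of all genes.

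Tumors 13 and 18 had the highest levels of the abundant genes Prdx1, Ftl1 and Sod1, with tumor 18 above tumor 13. Not all abundant antioxidant genes shared this, since Prdx6 was highest in tumor 36. Prdx1, the most abundant peroxiredoxin, had 1079 and 1265 CPM in tumors 13 and 18 and from 451 to 682 CPM in the other tumors. The ferritin light chain Ftl1 had 1992 and 2066 CPM in these tumors and from 929 to 1087 CPM elsewhere. Sod1 had 219 and 234 CPM in these tumors and from 105 to 143 CPM elsewhere. These genes do not separate the lines, since the Osx-Cre;NT3 tumor 25 had 504 CPM of Prdx1, 995 of Ftl1 and 105 of Sod1. The genes of this paragraph were chosen after their values were seen.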
